A study of Chlamydomonas reinhardtii with 45 samples.

Results

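The LHCA proteins form the chlorophyll-binding antenna of photosystem I (PSI), and the mRNAs described here are those of LHCA1 to LHCA9, the 9 genes of the 17609 in the table that carry these symbols. All 9 passed the minimum on low values, which 14602 genes passed. They were followed in Chlamydomonas reinhardtii strain CC-5390, a single line with the genotype label WT. By the study's methods it derives from the cell-wall mutant CC-4351 (cw15-325 mt+), to which a cosmid with the arginine gene ARG7 was added. Cells grew photoautotrophically in turbidostat photobioreactors under 12 h of light at 28 °C and 12 h of dark at 18 °C, and were acclimated to low light (LL), moderate light (ML, the level against which the others were compared) or high light (HL), set at 50, 200 and 1000 µmol photons m-2 s-1. Cells of the LL population had spent their first week under ML. Each population was sampled at the −2, +2, +6, +10 and −10 timepoints, in hours relative to lights on, so that −2 is the end of the night and −10 the early night that follows +10. Each of the 15 groups held 3 experimental replicates from separate cultures, which gives 45 libraries.

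In green algae the antenna is nucleus-encoded and is imported into the chloroplast, where the proteins bind chlorophyll a and b and pass excitation energy to the PSI reaction center. In the Chlamydomonas PSI complex they are arranged as an inner belt of LHCA1, LHCA8, LHCA7 and LHCA3, an outer belt in which LHCA4, LHCA6 and LHCA5 stand beside a further LHCA1, and a pair of LHCA2 and LHCA9 on the other side of the core. The members are described below in these groups, which come from structural background and were applied with results of these data known. The genes lie apart in the genome. In the RefSeq annotation of the Chlamydomonas_reinhardtii_v5.5 assembly, which is not the assembly of the files, all 9 matched, on chromosomes 6 (LHCA8, Cre06.g272650, LHCA6, Cre06.g278213, and LHCA1, Cre06.g283050), 7 (LHCA9, Cre07.g344950), 10 (LHCA5, Cre10.g425900, and LHCA4, Cre10.g452050), 11 (LHCA3, Cre11.g467573), 12 (LHCA2, Cre12.g508750) and 16 (LHCA7, Cre16.g687900). The closest of them on a chromosome, LHCA6 and LHCA1, have 198 genes between them.

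The values are FPKM, read fragments scaled to transcript length and to the total of the library. Levels of different genes can be set side by side, and a level is relative to the mRNA of its library. A change in the total mRNA per cell therefore cannot be told apart from a change of these mRNAs. The sum of all FPKM ran from 449988 (ML replicate 3 at +10) to 866130 (ML replicate 3 at +2). Differences in FPKM between timepoints or populations can thus differ in size from those in percent of all FPKM. The deposited tables give FPKM only, and the depth was estimated from the steps between low values, relative to replicate 1 of the ML population at −2. It was 0.168 in LL replicate 1 at −2 and 0.582 to 1.36 in the other libraries. ML replicate 3 at −10 stood apart for the LHCA mRNAs, as given below. The spread between replicates was small for most values of the members, with a coefficient of variation of 5.28% at the median of the 135 combinations of member and group and 32.6% at most (LHCA1 in the ML population at −10). Populations and timepoints were compared with limma on log2(FPKM + 1), and a difference was counted where its p, adjusted by the Benjamini-Hochberg method, was under 0.01. A stricter count also asked for a log2 difference above 1, that is, more than 2-fold.

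The LHCA mRNAs were among the most abundant of the cell in the light and had a wide diel range. Every member had its highest mean at +6 in each population. The lowest mean was at −10 in the ML and HL populations and at −2 in the LL population, for each of the 9. In the ML population this rested in part on replicate 3 at −10, since without it 4 members, LHCA2, LHCA3, LHCA4 and LHCA6, had their lowest mean at −2. In the ML population the summed FPKM of the 9 was 2433 ± 123 at −2, 16776 ± 246 at +2, 27612 ± 2603 at +6, 8626 ± 678 at +10 and 1863 ± 473 at −10 (SD, n = 3). At +6 this was 3.91% ± 0.219 of all FPKM of a library, and at −10 it was 0.362% ± 0.0839. By mean FPKM at +6 in the ML population the members ranked from place 26 (LHCA5) to place 64 of all genes, and at −10 from place 195 to place 919.

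**Figure D1:**
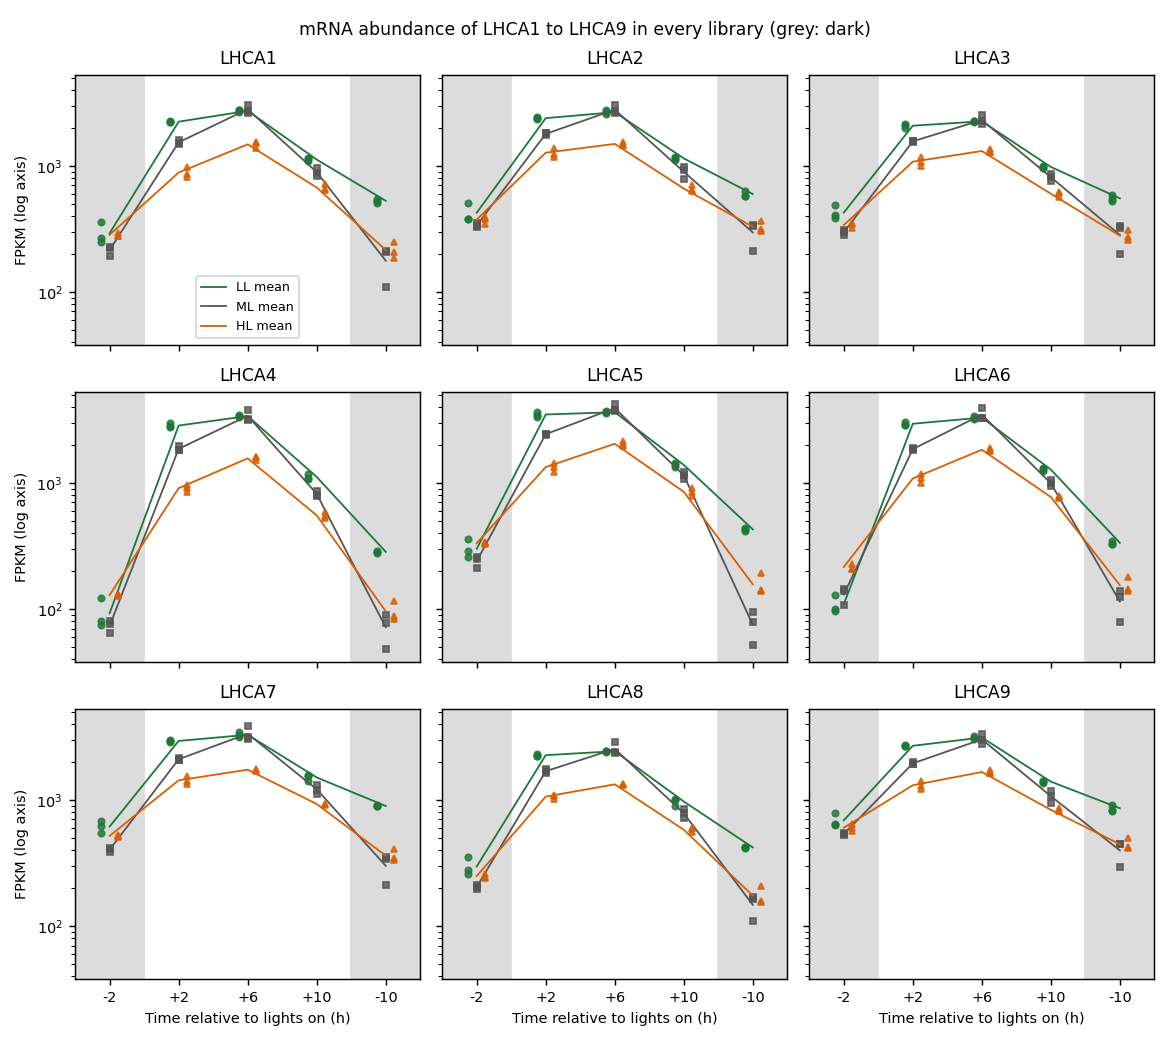
FPKM of LHCA1 to LHCA9 (log axis) at the 5 timepoints, with 1 panel per gene, 1 point per library and lines through the means of the LL, ML and HL populations. All 9 peak at +6 in each population, the HL points lie below the ML points at +2, +6 and +10, and the LL points lie above the ML points at −10.

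The order of the 15 groups for the summed FPKM began with the ML population at +6 and the LL population at +6 (26817 ± 472), whose libraries overlapped. The LL population at +2 followed (23877 ± 542), ahead of the ML population at +2. Next came the HL population at +6 (14456 ± 383), so that the highest summed FPKM of the HL population was below that of ML at +2. As a percent of all FPKM of a library it was the other way, with 2.48% ± 0.0249 in HL at +6 and 1.96% ± 0.0418 in ML at +2. The LL population at +10 (10899 ± 379) and the HL population at +2 (10360.2 ± 793) overlapped. They were followed by the ML population at +10 and the HL population at +10 (6449 ± 247). The night groups took the last 6 places, led by the LL population at −10 (4897 ± 156). The LL and HL populations at −2 overlapped (3244 ± 482 and 3042 ± 114), as did the last neighbours, which were the ML population at −2, the HL population at −10 (2211 ± 270.0) and the ML population at −10, in descending order. All other neighbours in this order had separate libraries.

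The members differed in how far they fell at night. The 3 found only in the outer belt had the widest range in each population. For LHCA4 the highest mean was 36.6 times the lowest in the LL population, 47.6 times in the ML population and 16.3 times in the HL population. The same ratio for LHCA6 was 30.3, 30.4 and 11.9 in the LL, ML and HL populations, and for LHCA5 it was 12.1, 52.2 and 13.0. In the inner belt, LHCA1 and LHCA8 had ratios of 15.9 and 17.2 in the ML population, and LHCA7 and LHCA3 had ratios of 11.2 and 8.16. LHCA2 and LHCA9, the pair on the other side, had ratios of 9.40 and 7.60 there. LHCA9 had the smallest range in each population, 4.54 in LL, 7.60 in ML and 3.74 in HL.

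The make-up of the LHCA mRNA pool was therefore not the same by day and by night. At +6 in the ML population the 9 were within a narrow band, with LHCA5 at the top (3773, 3730.1 and 4236 FPKM in replicates 1 to 3) and LHCA3 at the bottom (2275, 2140.4 and 2511 FPKM), and the libraries of all neighbours in the order overlapped. The full order there was LHCA5, LHCA6, LHCA4, LHCA7, LHCA9, LHCA1, LHCA2, LHCA8 and LHCA3. LHCA5 then made 14.2% ± 0.315 of the summed FPKM, LHCA4 12.3% ± 0.121 and LHCA9 10.9% ± 0.247 (SD, n = 3). At −10 the order in the ML population was LHCA9, LHCA7, LHCA2, LHCA3, LHCA1, LHCA8, LHCA6, LHCA5 and LHCA4, again with overlap between all neighbours, and it had LHCA9 at 21.5% ± 0.811, LHCA5 at 4.01% ± 0.320 and LHCA4 at 3.81% ± 0.280 of the sum.

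The share of LHCA5 in the night depended on the population and on the hour. At −10 it was 8.73% ± 0.138 in the LL population, 4.01% ± 0.320 in the ML population and 7.05% ± 0.472 in the HL population, and the 3 sets of libraries did not overlap. At −2 it was 9.23% ± 0.266, 9.83% ± 0.555 and 10.9% ± 0.236 in LL, ML and HL. The level of LHCA5 at −2 was 3.19 times that at −10 in the ML population and 2.12 times in the HL population, against ratios of 1.03 to 1.38 and 1.14 to 1.43 for the other 8 members. Without ML replicate 3 at −10 the ML ratio was 2.76 for LHCA5 and between 0.883 (LHCA4) and 1.23 (LHCA8) for the other 8, below 1 for the same 4 members. In the LL population the same ratio was below 1 for every member, at 0.326 for LHCA4 and for LHCA6, 0.701 for LHCA5 and 0.802 for LHCA9. These ratios were not tested, since −2 precedes and −10 follows the light period.

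**Figure D2:**
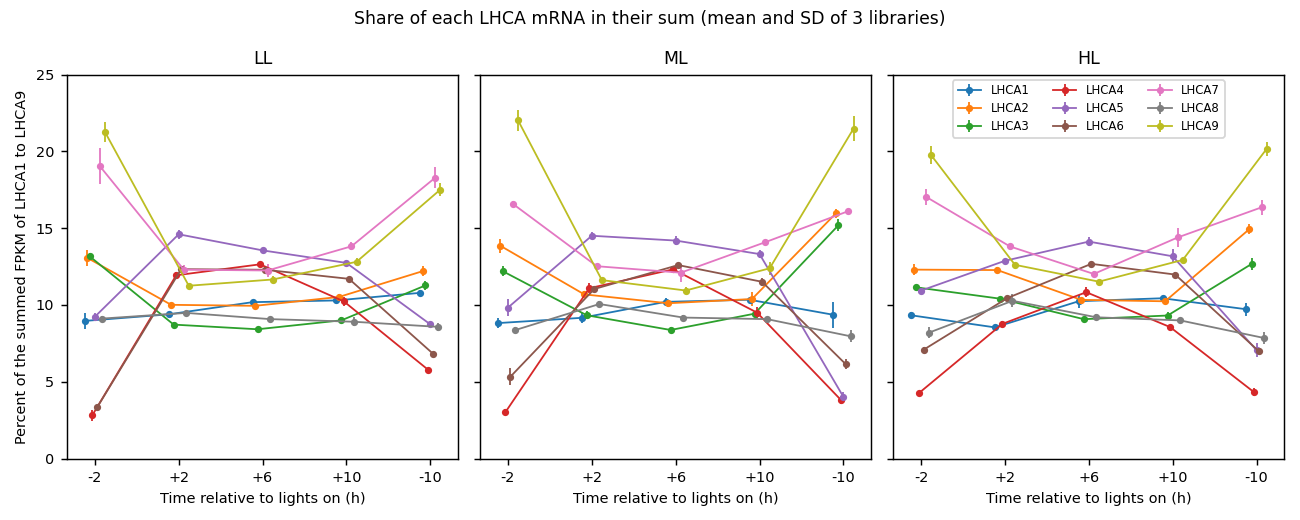
Percent of the summed FPKM of LHCA1 to LHCA9 held by each member at the 5 timepoints in the LL, ML and HL populations (mean and SD of 3 libraries). LHCA9 holds the largest share at −2 in each population, LHCA4 holds the smallest, and the shares draw together in the light.

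From the end of the night to +2, all 9 members rose in each population. The share of all genes that rose was 34.3%, 36.4% and 34.6% in LL, ML and HL. The log2 differences ranged from 1.97 (LHCA9) to 4.96 (LHCA4) in the LL population, from 1.86 to 4.65 in the ML population and from 1.12 to 2.80 in the HL population, with LHCA9 and LHCA4 at the ends each time. In the ML population LHCA4 had 1819.9, 1951 and 1811 FPKM at +2, against 75.6, 65.0 and 80.2 FPKM at −2. In the LL population it had 2978, 2800.4 and 2769 FPKM at +2 and 123, 80.8 and 74.1 FPKM at −2. In the HL population it had 917, 959 and 847 FPKM at +2 and 131, 129 and 126 FPKM at −2. The libraries of the 2 timepoints were far apart in each population, and the value at +2 was smallest in HL.

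From +2 to +6 the number of members that rose was 0 of 9 in LL, 9 of 9 in ML and 5 of 9 in HL. All 9 members rose in the ML population (log2 differences of 0.56 to 0.90; 30.4% of all genes rose) and 5 of 9 in the HL population (LHCA1, LHCA4, LHCA5, LHCA6 and LHCA9; 0.23 to 0.79 over the 9; 24.1% of all genes). In the LL population 0 of 9 passed the test (0.06 to 0.28), where 23.7% of all genes rose and 1 member had an unadjusted p below 0.05 in limma. The +6 libraries were nevertheless all above the +2 libraries for 8 of 9 members, as for 31.4% of all genes. The exception was LHCA5, which had 3684, 3565 and 3653 FPKM at +6 and 3636, 3478 and 3346 FPKM at +2 in the LL population. LHCA7, for example, had 3252, 3149.6 and 3449 FPKM at +6 and 2959, 2892 and 2956 FPKM at +2 there. In the ML population LHCA5 had 3773, 3730.1 and 4236 FPKM at +6 and 2450.0, 2448 and 2400.2 FPKM at +2, without overlap. Whether this step differed between the populations was tested as an interaction, given below. Quantile normalization gave 8 of 9 members a rise in the LL population and 9 of 9 in the HL population. As a percent of all FPKM of a library, the sum of the 9 in LL was 2.79% ± 0.0539 at +2 and 3.73% ± 0.0445 at +6.

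All 9 members fell from +6 to +10 in each population, by 1.12 to 1.61 on the log2 scale in LL, by 1.46 to 2.05 in ML and by 0.90 to 1.50 in HL. Among all genes, 23.5%, 28.4% and 32.7% fell in LL, ML and HL. All 9 fell again from +10 to −10, by 0.70 to 1.97 in LL, by 1.45 to 3.96 in ML and by 0.91 to 2.53 in HL, where 36.2%, 41.3% and 37.4% of all genes fell in LL, ML and HL. LHCA5 fell most at dusk in the ML population, with 94.0, 79.4 and 51.6 FPKM at −10 and 1213, 1156 and 1073 FPKM at +10. Scaling libraries to equal medians moved the median of all genes by −0.15 to −0.23 for the step from +6 to +10 and by 0.16 to 0.25 for the step from +10 to −10, and no member changed direction.

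A cosine curve of 24 h fitted all 9 members in each population (F test against a constant, q threshold of 0.05), as it did 76.3% of the genes tested in LL, 72.9% in ML and 75.9% in HL. The fitted peaks of the members lay within 1 h of each other, from 5.01 to 5.34 h after lights on in LL, from 5.25 to 5.50 h in ML and from 5.01 to 5.58 h in HL. The relative amplitude, which is the amplitude divided by the mean of the curve, ranged from 1.03 to 1.81 in LL, from 1.38 to 2.23 in ML and from 0.857 to 1.79 in HL, with LHCA9 lowest and LHCA4 highest each time. The rhythmic genes of all kinds had medians of 0.653, 0.775 and 0.698 in LL, ML and HL. A relative amplitude above 1 means that the fitted curve runs below 0 at its lowest point, so it is a measure of the curve and not of the lowest level.

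In the LL population the LHCA mRNAs were higher than in the ML population early in the morning and, most of all, early in the night. At −10, all 9 were higher in LL, where 13.1% of all genes were, and 8 of 9 by more than 2-fold, against 2.85% of all genes. The median of the members was 1.58 on the log2 scale and that of all genes 0.03. LHCA5 had 436, 429 and 418 FPKM in LL and 94.0, 79.4 and 51.6 FPKM in ML, a 5.70-fold difference (log2 difference 2.54, SE 0.13, adjusted p = 4.0e-17). LHCA4 had 289, 285 and 278 FPKM in LL and 89.0, 77.7 and 47.9 FPKM in ML (3.97-fold, log2 difference 2.02, SE 0.14, adjusted p = 2.3e-13). For both, every LL library was above every ML library by a wide margin.

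In the inner belt, LHCA7 had 893, 887 and 906 FPKM in LL at −10 and 349.9, 338 and 212 FPKM in ML (log2 difference 1.61, SE 0.11, adjusted p = 8.3e-14). LHCA1 and LHCA8 had log2 differences of 1.63 and 1.53, close to LHCA6 of the outer belt at 1.58. The smallest differences were those of LHCA9 (1.13), LHCA2 (1.04) and LHCA3 (log2 difference 1.00, SE 0.11, adjusted p = 5.3e-09), the last of which is 1.95-fold by its means. LHCA3 had 587, 545 and 524 FPKM in LL and 319, 331 and 199 FPKM in ML, again without overlap.

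ML replicate 3 at −10 was the lowest ML library for each of the 9 mRNAs, with a summed FPKM of 1317, against 2152 and 2119 in replicates 1 and 2. Its summed FPKM of 13 genes of DNA replication and cell division, such as the MCM helicase subunits, was 291, against 109 and 98.5, and that of LL replicate 3 at −10 was 294, against 129.7 and 169. Their part in the LHCA values was not tested. Without ML replicate 3 at −10 the 9 members were still higher in LL, with log2 differences of 0.76 (LHCA3) to 2.29 (LHCA5), and 6 of 9 by more than 2-fold.

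At +2, all 9 members were higher in LL than in ML, by less than 2-fold, where 16.6% of all genes were higher. The log2 differences ranged from 0.41 (LHCA3 and LHCA2) to 0.67 (LHCA6), with a median of 0.48, against 0.03 for all genes. LHCA6 had 3042, 2894 and 2895 FPKM in LL and 1815, 1889 and 1851 FPKM in ML (log2 difference 0.67, SE 0.13, adjusted p = 5.0e-05), and LHCA4 had 2978, 2800.4 and 2769 FPKM in LL and 1819.9, 1951 and 1811 FPKM in ML (log2 difference 0.61, SE 0.14, adjusted p = 6.7e-04). LHCA5, the most abundant in both populations at this hour, had 3636, 3478 and 3346 FPKM in LL and 2450.0, 2448 and 2400.2 FPKM in ML (log2 difference 0.52, SE 0.13, adjusted p = 0.0012). The LL and ML libraries of every member were separate at +2 with LL higher, as they were for 4265 of the 14602 genes. With 2 libraries a group the count fell to 3 without replicate 1 and to 1 without replicate 2, with the same direction.

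At +6, the middle of the day, 0 of 9 members passed the test between LL and ML (0 of 9 in limma at an adjusted p below 0.01 and 0 of 9 at an unadjusted p below 0.05), while 20.8% of all genes differed in one direction or the other. The log2 differences ranged from −0.10 (LHCA5) to 0.05 (LHCA9), and the 95% interval of LHCA5, the widest from 0, ran from −0.36 to 0.16. LHCA9 had 3211, 3066 and 3101 FPKM in LL and 2966, 2767 and 3329 FPKM in ML. The libraries overlapped for every member but LHCA5, which had 3684, 3565 and 3653 FPKM in LL, just below the lowest ML library. Of all 14602 genes, 3383 had every LL library below every ML library, and 3172 had every LL library above. ML replicate 3 at +6 had the highest value of its group for each member.

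At +10 the log2 differences ranged from 0.27 to 0.45, with a median of 0.33 against −0.05 for all genes, and 1 of 9, LHCA9, passed the test (1361, 1422 and 1403 FPKM in LL and 1184, 1079.8 and 947 FPKM in ML, log2 difference 0.39, SE 0.10, adjusted p = 0.0027), with 14.7% of all genes higher. The LL and ML libraries of every member were separate with LL higher, as they were for 3540 of the 14602 genes. As a percent of all FPKM the sum of the 9 was 2.04% ± 0.0591 in LL and 1.85% ± 0.0801 in ML. At +10, 9 of 9 passed with each timepoint modelled alone, and 8 of 9 without ML replicate 3 at −10. That library enters the +10 comparison only through the spread estimated over all groups, so the log2 differences were the same without it. At −2, 3 of 9 were higher in LL, LHCA7, LHCA8 and LHCA3 of the inner belt, where 6.99% of all genes were. LHCA7 had 678, 620.0 and 546 FPKM in LL and 415, 384 and 411 FPKM in ML at −2 (log2 difference 0.60, SE 0.11, adjusted p = 1.2e-04). LHCA6 was the only member with a lower mean in LL, with 129, 101 and 97.1 FPKM in LL and 138, 108 and 145 FPKM in ML (log2 difference −0.25, SE 0.13, adjusted p = 0.15). LL replicate 1, the library of lowest depth, had the highest value of its group for each member at −2, and without it 1 of 9, LHCA7, passed.

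In the HL population the LHCA mRNAs were lower than in the ML population in the light, all 9 at +2 and +6 and 7 of 9 at +10. At +2 all 9 were lower, where 12.5% of all genes were, and the median of the members was −0.67, against 0.04 for all genes. LHCA4 was lowest relative to ML, with 917, 959 and 847 FPKM in HL and 1819.9, 1951 and 1811 FPKM in ML (2.05-fold lower, log2 difference −1.04, SE 0.14, adjusted p = 3.7e-07). It was the only member past 2-fold, as 1.46% of all genes were. LHCA5 and LHCA6, the other 2 of the outer belt, had log2 differences of −0.87 and −0.78, and LHCA1, which stands in both belts, had −0.80. LHCA8, LHCA7 and LHCA3 of the inner belt had −0.67, −0.56 and −0.54. LHCA9 and LHCA2 had −0.58 and −0.50. LHCA2, at the upper end, had 1249, 1394 and 1172 FPKM in HL and 1807, 1813 and 1757 FPKM in ML. The libraries of both populations were separate for each member with HL lower, as they were for 3526 of the 14602 genes.

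At +6 all 9 were again lower in HL, with log2 differences from −1.12 (LHCA4) to −0.81 (LHCA3) and a median of −0.92, against 0.03 for all genes. Among all genes 4.99% were lower. The summed FPKM of the 9 was 2.48% ± 0.0249 of all FPKM in HL and 3.91% ± 0.219 in ML. LHCA4 had 1593, 1597 and 1506 FPKM in HL and 3233, 3168 and 3810.2 FPKM in ML (log2 difference −1.12, SE 0.14, adjusted p = 4.3e-07) and was the only member past 2-fold, as 0.644% of all genes were. LHCA7 had 1706, 1768 and 1736 FPKM in HL and 3038, 3131 and 3876 FPKM in ML (log2 difference −0.94, SE 0.11, adjusted p = 8.6e-08). LHCA3 had 1292, 1354 and 1288 FPKM in HL and 2275, 2140.4 and 2511 FPKM in ML (log2 difference −0.81, SE 0.11, adjusted p = 8.4e-07). Since most members lay close to 2-fold, the stricter count moved with the scaling of the libraries, to 7 of 9 with equal medians and to 0 of 9 with quantile normalization.

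At +10, 7 of 9 members were lower in HL, with log2 differences from −0.57 (LHCA4) to −0.35 (LHCA9), where 10.5% of all genes were lower. LHCA1 (−0.40) and LHCA6 (−0.36) did not pass. LHCA4 had 582, 544 and 529.9 FPKM in HL and 862, 804 and 788 FPKM in ML (log2 difference −0.57, SE 0.14, adjusted p = 0.0024), without overlap. With 2 libraries a group, 1 of 9 passed without replicate 1 and 0 of 9 without replicate 2.

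In the night the direction was the other way, in fewer members. At −2, 2 of 9 were higher in HL, both of the outer belt, where 0.541% of all genes were. LHCA4 had 131, 129 and 126 FPKM in HL and 75.6, 65.0 and 80.2 FPKM in ML (log2 difference 0.81, SE 0.14, adjusted p = 6.1e-04). LHCA6 had 229, 209 and 209 FPKM in HL and 138, 108 and 145 FPKM in ML (log2 difference 0.73, SE 0.13, adjusted p = 4.4e-04). The other 7 had log2 differences from 0.15 (LHCA2) to 0.48 (LHCA5). With −2 modelled alone, neither LHCA4 nor LHCA6 passed.

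At −10, 1 of 9 was higher in HL, where 5.07% of all genes were higher and 0.781% by more than 2-fold. It was LHCA5, with 192, 140.1 and 139 FPKM in HL and 94.0, 79.4 and 51.6 FPKM in ML (2.09-fold, log2 difference 1.08, SE 0.13, adjusted p = 1.2e-07). The other 8 had log2 differences from 0.01 (LHCA3) to 0.46 (LHCA6). Without ML replicate 3 at −10, LHCA5 remained higher in HL, by 0.84 (adjusted p = 1.3e-06) and so by less than 2-fold. The other 8 lay between −0.22 and 0.21. With −10 modelled alone, LHCA5 did not pass.

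**Figure D3:**
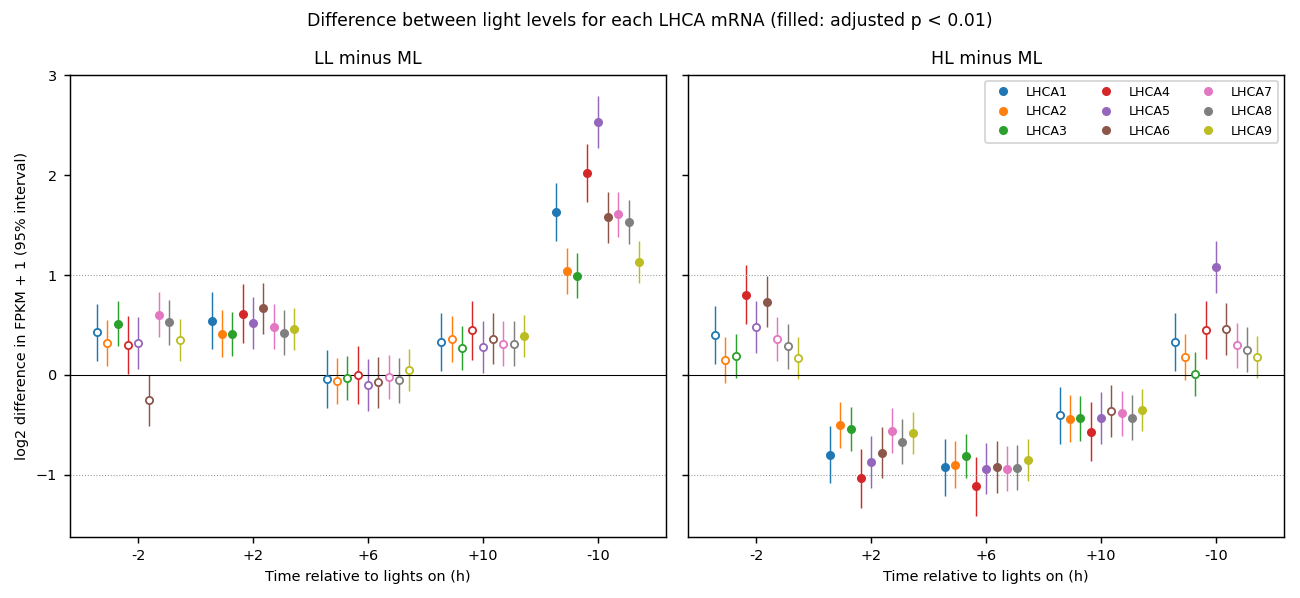
Log2 difference in FPKM + 1 for each LHCA mRNA with its 95% interval, LL minus ML (left) and HL minus ML (right), at the 5 timepoints; filled points have an adjusted p below the threshold of 0.01 and dotted lines mark 2-fold. The LL differences are largest at −10 (1.00 to 2.54) and near 0 at +6, and the HL differences are negative at +2, +6 and +10.

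The HL and LL populations were also set directly against each other. All 9 members were lower in HL than in LL at +2, +6, +10 and −10, where 10.5%, 6.01%, 15.9% and 11.0% of all genes were. The log2 differences ranged from −1.65 to −0.91 at +2, from −1.12 to −0.78 at +6, from −1.01 to −0.70 at +10 and from −1.57 to −0.86 at −10, with LHCA4 at the low end each time. With quantile normalization 3 of 9 passed at +6 and 5 of 9 at +10. At +2 LHCA4 had 917, 959 and 847 FPKM in HL and 2978, 2800.4 and 2769 FPKM in LL, 3.14-fold lower in HL. At −2, 1 of 9 was higher in HL, where 3.09% of all genes were. This was LHCA6, with 229, 209 and 209 FPKM in HL and 129, 101 and 97.1 FPKM in LL (log2 difference 0.99, SE 0.13, adjusted p = 4.9e-07). The log2 differences of the 9 at −2 ran from −0.32 (LHCA3) to that of LHCA6, with a median of −0.17, against 0.01 for all genes. These comparisons share their libraries with those against ML.

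Whether a light difference changed between neighbouring timepoints was tested as an interaction. The LL difference from ML was higher at −10 than at +10 for all 9 members (18.4% of all genes), by 0.68 (LHCA2) to 2.26 (LHCA5) on the log2 scale. It was lower at +6 than at +2 for 2 of 9, LHCA6 (−0.74) and LHCA5 (−0.62), with values of −0.41 to −0.74 over the 9 and 11.8% of all genes. Without ML replicate 3 at −10 this count was 9 of 9 with the same log2 differences. That library enters here only through the spread estimated over all groups. Between −2 and +2 the LL difference became higher for LHCA6 alone (log2 difference 0.92, SE 0.18, adjusted p = 1.6e-04; 8.88% of all genes). Between +6 and +10, 0 of 9 passed in limma, 1 of 9 at an adjusted p threshold of 0.05 and 7 of 9 at an unadjusted p below 0.05, where 18.0% of all genes changed in either direction.

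The HL difference was lower at +2 than at −2 for all 9 members (6.20% of all genes), with values from −1.84 (LHCA4; log2 difference −1.84, SE 0.20, adjusted p = 2.2e-08) to −0.65 (LHCA2). It was higher at −10 than at +10 for 8 of 9 (11.4% of all genes), by 0.45 (LHCA3, which did not pass) to 1.51 (LHCA5), and for 5 of 9 without ML replicate 3 at −10. Between +2 and +6, 0 of 9 passed in limma and 2 of 9 had an unadjusted p below 0.05 (19.2% of all genes changed in either direction). Between +6 and +10, 0 of 9 passed and 9 of 9 had an unadjusted p below 0.05 in limma (9.35% of all genes). Without ML replicate 3 at −10, 8 of 9 passed with the same log2 differences, again through the shared spread.

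The nucleus-encoded subunits of the PSI core, which the antenna surrounds, differed from ML in the same direction as the LHCA mRNAs in the light. Of the 10 subunits listed, 10 were lower in HL than in ML at +2 and at +6 and 8 at +10, with medians of −0.54, −0.82 and −0.37. The shares of all genes lower in HL were 12.5%, 4.99% and 10.5% at these timepoints. At +2 PSAO1 and PSAI1 were at the ends (−0.65 and −0.38), and at +6 PSAG1 and PSAD1 (−0.94 and −0.71). In LL, 9 of 10 were higher than in ML at +2 (16.6% of all genes; median 0.39). At −10, 10 of 10 were higher (13.1% of all genes; median 0.80), from PSAD1 (0.47) to PSAH1 (1.36). At −10 the LHCA mRNAs were higher relative to these subunits in LL than in ML and HL. The summed LHCA FPKM divided by that of the 10 subunits was 0.626 ± 0.00873 in LL, 0.395 ± 0.0415 in ML and 0.404 ± 0.0266 in HL (SD, n = 3). At +2 it was 0.900 ± 0.00713, 0.837 ± 0.0266 and 0.749 ± 0.00371 in LL, ML and HL, and at +6 0.942 ± 0.0156, 0.909 ± 0.0166 and 0.841 ± 0.00697. At −2, the other night timepoint, it was 0.499 ± 0.0149, 0.497 ± 0.0173 and 0.565 ± 0.00321. Of the 10 subunits, 8 were higher in LL than in ML at −2 (6.99% of all genes; median 0.40), against 3 of 9 LHCA mRNAs.

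Over the 15 group means of log2(FPKM + 1), the 36 pairs of LHCA members had Pearson's r of 0.956 to 0.999 with a median of 0.987, as a description, since the points share the same libraries and the same light-dark cycle. LHCA2 and LHCA3 were most alike (0.999), followed by LHCA4 and LHCA6 (0.997), LHCA8 with LHCA3 (0.996) and LHCA7 with LHCA8 (0.995). LHCA1 was most like LHCA7 (0.994), LHCA9 most like LHCA7 (0.993) and LHCA5 most like LHCA8 (0.988). Among the 14593 other genes tested, the 5 with the highest r to the mean standardized profile of the 9 members were PSAH1 (0.995), PSAL1 (0.994), PSAE1 (0.993), PCY1 (0.991) and PSAK1 (0.990). PCY1 encodes plastocyanin, the copper protein that carries electrons to PSI, and the other 4 encode PSI subunits. The median r of all other genes was 0.04. The LHCBM mRNAs, which encode the major antenna of photosystem II, had r of 0.01 to 0.92 with a median of 0.893.

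The median differences of the LHCBM mRNAs at +2 were further from 0 than those of the LHCA mRNAs, which was not tested. At +2, 8 of 9 were higher in LL than in ML (16.6% of all genes; median 1.37, from 0.82 in LHCBM1 to 2.93 in LHCBM4). In HL, 8 of 9 were lower at +2 (12.5% of all genes; median −1.28, from −2.92 in LHCBM4 to 0.18 in LHCBM9). At +6, 8 of 9 were lower in HL (4.99% of all genes; median −0.98, from −2.13 in LHCBM8 to 0.35 in LHCBM9). In LL 1 of 9 was lower at +6, LHCBM9 (−4.29), among 9.85% of all genes. At −10, 6 of 9 were higher in LL (13.1% of all genes) and 1 of 9 lower (9.42% of all genes). The median was 0.70, with LHCBM7 (3.11) and LHCBM9 (−6.94) at the ends. Fragments of near-identical LHCBM genes could have been divided between copies, so that single values of that family are uncertain. Sequence identity among the LHCA members was not analysed here. Of the 3 minor antenna mRNAs of photosystem II, LHCB4 and LHCB5 were lower in HL at +6 (LHCB4 at −0.96, LHCB7 at −0.23), and at −10 they were higher in LL (LHCB4 at 1.78, LHCB7 at −0.11) and in HL (LHCB5 at 1.63, LHCB7 at −0.48). The matching shares of all genes were 4.99%, 13.1% and 5.07%.

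**Figure D4:**
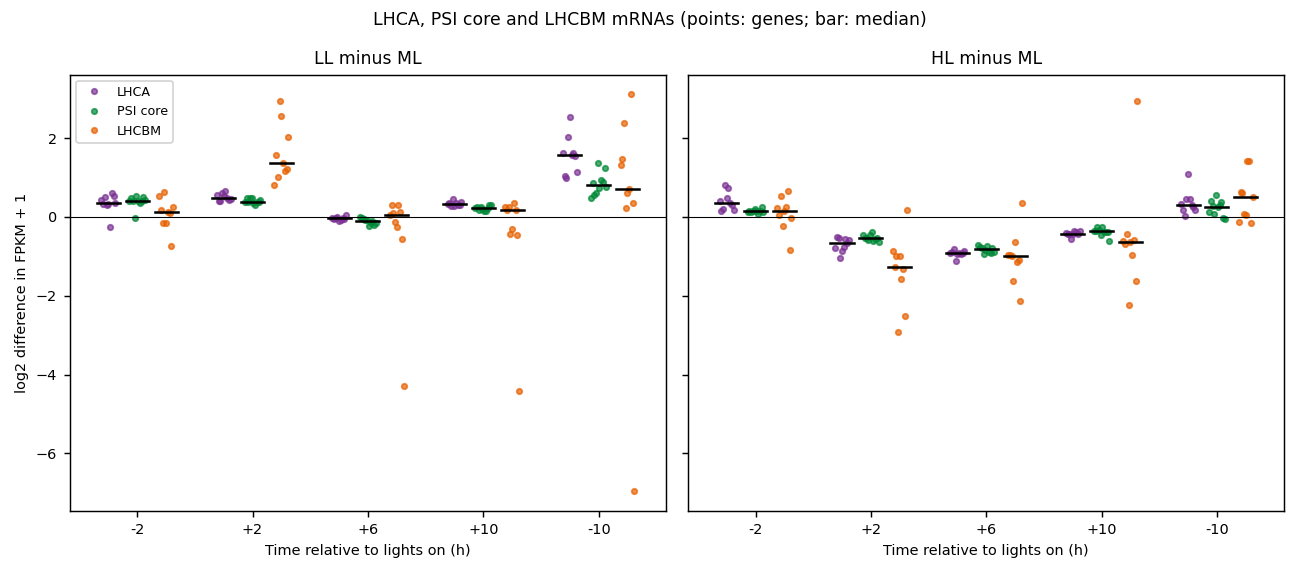
Log2 difference in FPKM + 1, LL minus ML (left) and HL minus ML (right), for the LHCA mRNAs, the 10 PSI core mRNAs and the 9 LHCBM mRNAs at the 5 timepoints; points are genes and bars are medians. In LL at −10 the LHCA median is 1.58 and the PSI core median 0.80, and the LHCBM medians at +2 are further from 0 (1.37 and −1.28).

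Genes of photoprotection, chlorophyll synthesis and antenna insertion are given beside the LHCA mRNAs at the same timepoints. The LHCSR proteins dissipate excess excitation, and in land plants PSBS is needed to activate such dissipation. The paper describes the function of PSBS in Chlamydomonas as unclear. Of the 4 tested mRNAs of these proteins, 3 were higher in HL at +2 (16.8% of all genes; median 1.87, from LHCSR1 at 0.64 to PSBS2 at 2.10), when all 9 LHCA mRNAs were lower. In LL at +6, 3 of 4 were lower (9.85% of all genes; median −3.22, from LHCSR3B at −3.87 to PSBS2 at 0.09). PSBS2 was near the floor, with means of 4.32 FPKM in HL and 0.247 FPKM in ML at +2. At +6 its means were 0.116 FPKM in LL and 0.0466 FPKM in ML. Of the 14 mRNAs of chlorophyll synthesis, 11 were lower in HL at +2 (12.5% of all genes; median −0.67, from POR1 at −0.96 to CHLH1 at −0.02), as the LHCA mRNAs were. In HL at +10, 10 were higher (11.7% of all genes) and 1 lower (10.5%; median 0.76, from CAO1 at −0.36 to GUN4 at 1.96), and at −10, 12 were higher (5.07% of all genes; median 1.20, from DVR1 at 0.44 to POR1 at 2.80). In LL at +6, 12 of these 14 were lower (median −1.06, from GSA1 at −1.57 to CAO1 at −0.01), when 0 of 9 LHCA mRNAs passed the test, and at −10, 9 were higher (13.1% of all genes; median 0.56, from CHL27A at −0.56 to CHLM1 at 1.92). Of 5 mRNAs of antenna translation and insertion, such as the chloroplast signal recognition particle and the ALB3 insertases, 5 were lower in HL at +2 (median −0.83, from NAB1 at −1.14 to ALB3B at −0.40) and 4 were higher in HL at −10 (median 1.45, from ALB3B at 0.21 to SRP54L at 1.83). Among all genes these shares were 12.5% and 5.07%. At −10 in LL, 2 of these 5 were higher (13.1% of all genes; median 0.22, from ALB3A at −0.22 to NAB1 at 2.26). At +6 in LL, 4 of these 5 were lower (9.85% of all genes; median −0.75, from SRP54L at −0.82 to NAB1 at −0.11). There 0 of 9 LHCA mRNAs passed the test.

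The 13 genes of DNA replication and division, as a readout of the cell cycle, also differed between the populations. Their summed FPKM at −2 was 23.6 to 28.9 in LL and 65.5 to 211 in ML, with 12 of 13 lower in LL (5.15% of all genes; median −1.71, from RIR2 at −2.63 to ORC1 at −0.72). At +10 it was 953 to 1479 in LL and 2165 to 2451 in ML, with 10 of 13 lower (16.2% of all genes; median −1.0, from MCM4 at −1.18 to CYCA1 at −0.47). In HL at −2 it was 36.2 to 49.1, with 5 of 13 lower than in ML (0.651% of all genes; median −1.21, from CDKB1 at −1.51 to ORC1 at −0.59). At +2 it was 19.5 to 29.1 in LL, 16.0 to 21.9 in ML and 23.3 to 27.2 in HL, low in every library. At +6 the direction was the other way, with 222 to 306 in LL, 124 to 182 in ML and 254 to 276 in HL. There 6 of 13 were higher in LL (11.0% of all genes; median 0.70, from PCN1 at 0.22 to RIR2 at 2.41). In HL, 3 of 13 were higher at +6 (8.46% of all genes; median 0.73, from CYCB1 at −0.04 to RIR2 at 2.00). At −10, 3 of 13 were higher in LL (13.1% of all genes; median 0.66, from CYCB1 at −0.26 to PCN1 at 1.24). The part of these genes in the LHCA differences was not tested.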

How the data were processed

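The authors sequenced poly(A) RNA from 45 samples, aligned the reads with STAR 2.4.0j to the CC-4532 v6.1 assembly and made FPKM with Cuffdiff 2.0.2, counting by strand. The deposited FPKM per replicate were used, and the authors' group values were not. Groups came from the GEO labels. Nothing in the files gives read counts, so no count test was run, and depth is known only relative to 1 library. The count test of the study was therefore replaced by limma 3.58.1 in R 4.3.3. The 15 groups entered 1 model of log2(FPKM + 1) with a trend in the variance, over the 14602 genes that reached 1 FPKM in 3 libraries or more. P-values were Benjamini-Hochberg adjusted over all genes of a comparison (threshold 0.01, and for the stricter count a log2 difference over 1). Rhythm was tested by a cosinor F test on FPKM within each population (numpy 2.4.6, scipy 1.17.1, Python 3.11.15). Both were tested on simulated data. Both treated the libraries as independent, also those of 1 culture at different timepoints. With culture as a random effect in limma the fitted correlation was −0.00241. The members, lists and comparisons were chosen with earlier results of these data known. All 9 members are named. In a list, the genes with the largest and smallest signed difference are named, and for likeness the 5 most alike other genes. In the insertion list SRP54 was replaced by SRP54L after the table was read, because the table describes SRP54L as the chloroplast protein. Replicates came from cultures of different weeks. The deviations of same-numbered libraries had a correlation over 0.1 in 12 of 45 light pairs and 12 of 36 time pairs. Every pair of a set was over 0.1 only for LL and ML at −10, and the main model had no block for the number. Alternatives were a pseudocount of 0.1, a mean FPKM of at least 5, no filter, no variance trend, median scaling, quantile normalization, an adjusted p of 0.05, each timepoint alone, culture as a random effect, a replicate block, a cosinor on the log2 scale and leaving out libraries, of which leaving out ML replicate 3 at −10 was chosen after seeing the data.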

Additional observations from a re-analysis of the deposited data

Results flagged for a closer look

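Each of these results is a test that the difference of LL or HL from ML changed between neighbouring timepoints. For LL against ML, the difference was higher at +2 than at −2 for 1 of 9 LHCA mRNAs (LHCA6), near the share of all genes (8.88%). It was lower at +6 than at +2 for 2 of 9 (LHCA6 and LHCA5; 11.8% of all genes). It was higher at −10 than at +10 for 9 of 9 (18.4% of all genes). For HL against ML, the difference was lower at +2 than at −2 for 9 of 9 (6.20% of all genes). It was higher at −10 than at +10 for 8 of 9 (11.4% of all genes), with LHCA3 as the exception. The counts for +6 against +2 in LL and for −10 against +10 in HL moved without 1 ML library at −10, as given above.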

How the results depend on the processing

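No LHCA difference with an adjusted p below 0.01 changed direction under any alternative, among 211 such differences (87 for each timepoint alone). All counts below are of the 9 members. For LL against ML, the 3 higher at −2 became 6 at an adjusted p of 0.05, 1 with each timepoint alone and 0 to 7 with libraries left out, and the 9 higher at +2 became 1 to 9 with libraries left out. The 1 higher at +10 became 2 with a mean FPKM of at least 5, 6 with median scaling, 0 with quantile normalization, 7 at 0.05, 9 with each timepoint alone and 0 to 8 with libraries left out. For HL against ML, the 2 higher at −2 became 0 with each timepoint alone and 0 to 4 with libraries left out, the 7 lower at +10 became 0 to 9 with libraries left out, and the 1 higher at −10 became 2 with a mean FPKM of at least 5, 4 with quantile normalization, 3 at 0.05, 0 alone and 1 to 2 with libraries left out. Over 2-fold, the 1 lower in HL at +2 became 2 with median scaling and 0 with quantile normalization. The 1 at +6 became 7 and 0 with these scalings and 1 to 2 with libraries left out, and the 1 at −10 became 0 alone and 0 to 1 with libraries left out. For HL against LL, the 1 higher at −2 became 2 with a mean FPKM of at least 5, with quantile normalization and at 0.05, and 1 to 2 with libraries left out, and quantile normalization gave 3 of the 9 lower at +6 and 5 of the 9 at +10. From +2 to +6, 0 rose in LL, against 8 with quantile normalization and 0 to 1 with libraries left out, and the 5 in HL became 9 with quantile normalization, 8 at 0.05 and 4 to 8 with libraries left out.

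Among the interactions with LL, the 2 lower from +2 to +6 became 1 with median scaling, 8 with quantile normalization, 9 at 0.05 and 0 to 9 with libraries left out, and the 0 from +6 to +10 became 1 at 0.05 and 0 to 1 with libraries left out. Among those with HL, the 9 lower from −2 to +2 became 3 to 9 with libraries left out, and the 0 from +2 to +6 became 1 with quantile normalization and 0 to 1 with libraries left out. The 0 from +6 to +10 became 1 with a mean FPKM of at least 5, 4 with median scaling, 6 at 0.05 and 0 to 8 with libraries left out. The 8 higher from +10 to −10 became 1 to 8 with libraries left out. ML replicate 3 at −10 moved several of these counts, as given in the text. In comparisons without ML at −10, leaving it out kept the log2 differences, since each group has its own mean. There it changed only the spread that all 15 groups share, and so the p-values. Why this library stood apart was not tested.

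The correlations of same-numbered libraries had a median of 0.041 over 45 light pairs and 0.069 over 36 time pairs, and 12 of each were over 0.1. In 1 of 27 sets of 3 pairs, LL and ML at −10, every pair was over 0.1 (0.171, 0.154 and 0.329), and for HL and ML at −10 the values were 0.0971, 0.199 and 0.289. With the replicate number as a block, 9 members were higher in LL at −10 and 8 by over 2-fold, as without it. The 1 higher in LL at +10 became 3, the 1 higher in HL at −10 became 2 and the 1 higher in HL than in LL at −2 became 2 with the block, and all other counts stayed within 1.5 times. Of 604 recomputed counts and values, 529 stayed and 75 moved, and of 282 for single members 12 lost their call and 0 reversed. The depth of single libraries is known only in relative terms, so no interval for counting error can be given.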

Other observations

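The LHCA mRNAs and the LHCBM mRNAs of the photosystem II antenna stood in different proportions in the 3 populations in the early morning. The summed FPKM of the 9 LHCA genes divided by that of the 9 LHCBM genes at +2 was 1.08 ± 0.0347 in LL, 1.70 ± 0.0540 in ML and 2.22 ± 0.237 in HL (SD, n = 3). At +6 the ratio was 0.589 ± 0.0157, 0.631 ± 0.0251 and 0.675 ± 0.0118 in LL, ML and HL, and at −10 it was 0.854 ± 0.0253, 0.690 ± 0.118 and 0.738 ± 0.0158. These sums hold near-identical LHCBM genes together, so a division of fragments between copies of like length within the family largely cancels in them. Fragments left out, or divided between copies of unlike length, could still change the sums, which was not checked. No test was run on these ratios.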
